A study of Mus musculus with 8 samples.

Results

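Serpins are a large family of secreted and intracellular proteins, most of which inhibit proteases. An inhibitory serpin offers its exposed reactive centre loop as bait, and the protease that cuts the loop stays covalently trapped in a complex that cannot be reused. Some members have lost this activity and serve as hormone carriers or as a chaperone. The liver is the main source of the plasma serpins that hold clotting, fibrinolysis, complement and neutrophil proteases in check. The letter after Serpin in a symbol names the clade: clade a holds secreted alpha-1-antitrypsin relatives, clade b the intracellular ovalbumin-type serpins, and clades c to i smaller groups that include antithrombin, heparin cofactor II, antiplasmin, C1 inhibitor, a collagen chaperone and neuroserpin.

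With earlier results of these data known, all genes whose single annotated symbol starts with Serpin were taken from the array table, whatever their values. This gave 52 genes out of 19532 named genes, measured by 69 of 41174 probes. Clade a had 18 genes, clade b 25, clades f and i had 2 each, and clades c, d, e, g and h had 1 each. RefSeq lists 69 Serpin genes in the mouse, and the other 17, among them Serpina1a and Serpina3k, were not analysed here. The members sit mainly in 3 gene clusters: 17 measured clade a genes on chromosome 12, 11 clade b genes on chromosome 1 and 14 clade b genes on chromosome 13.

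The study compared liver RNA of 4 mice with the mper2brdm1 mutation and 4 wild-type mice, each on its own 1-colour array. Both groups had a mixed background of 129sv and C57Bl/6, belonged to the same cohort and had gone without food for 8 h before they were killed. Per2 is a core component of the circadian clock, and Brdm1 is a germline deletion within the part of the gene that encodes the PAS domains, so every tissue of a mutant carries it. Sex, age and the clock time of sampling were not given in the labels. Values are on a log2 scale, and each probe's median over all mice is 0. They therefore give differences between mice, not levels, and no gene's abundance can be set against another's. A difference is mutant minus wild type on this scale, with its standard error after the ± sign. It comes from a limma fit of all 28042 gene and probe rows, and a gene passes where its p, adjusted by Benjamini and Hochberg's method over those rows, is under 0.05.

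Some properties of the arrays bear on what follows. The 2 Per2 probes moved in opposite directions, by -1.70 ± 0.12 (A_51_P282760, adjusted p = 0.000333) and 2.54 ± 0.13 (A_52_P536869, adjusted p = 0.000123), with groups that did not overlap on either probe. Where these probes lie relative to the deletion was not given. The control features had medians of -0.66 and -0.43 in wild type replicates 2 and 3 and of -0.04 to 0.13 on the other 6 arrays. The mean of 5 hepatocyte markers overlapped between the groups, at -0.12 to 0.07 in mutant and -0.08 to 0.11 in wild-type mice, and 1 of them fell. Acute-phase genes had list means of 0.52 to 0.62 in mutant and -0.78 to -0.53 in wild-type mice, and 6 of 14 rose. Kupffer cell genes had list means of 0.47 to 0.78 against -0.79 to -0.32, and 9 of 10 rose. Among all rows, 6.52% rose and 8.93% fell. In bulk tissue, fewer cells of a type and less RNA per cell cannot be told apart.

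Of the 52 Serpin genes, 12 passed, 4 higher and 8 lower in the mutants. This is 23.1% of the family, against 15.5% of all rows and 17.6% of named genes. Clade a had 3 higher and 2 lower genes, clade b had 0 higher and 6 lower, and the 9 genes of clades c to i had 1 higher and 0 lower. Over all rows 6.52% passed as higher and 8.93% as lower. Without the shift between arrays the family had 5 higher and 7 lower genes, and all rows 2449 higher and 1537 lower in place of 1828 and 2505. At an unadjusted p under 0.05 there were 13 higher and 12 lower Serpin genes, against 30.3% of all rows. The groups did not overlap in 19 Serpin genes, 7 with all mutants above and 12 with all mutants below, against 24.6% of all rows in either direction (10% above and 14.6% below).

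The median difference was 0.34 in clade a, -0.46 in clade b and 0.18 in clades c to i, beside 0.08 over all rows. Differences ran from -1.99 to 1.92 in clade a and from -4.90 to 0.81 in clade b. Without the shift between arrays the median of all rows was 0.20 and that of the 52 Serpin genes 0.05, in place of 0.08 and -0.07. A difference of at least 2-fold was seen in 14 Serpin genes, and 11 of these passed. Among all rows 6.19% both passed and differed by at least 2-fold.

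**Figure D1:**
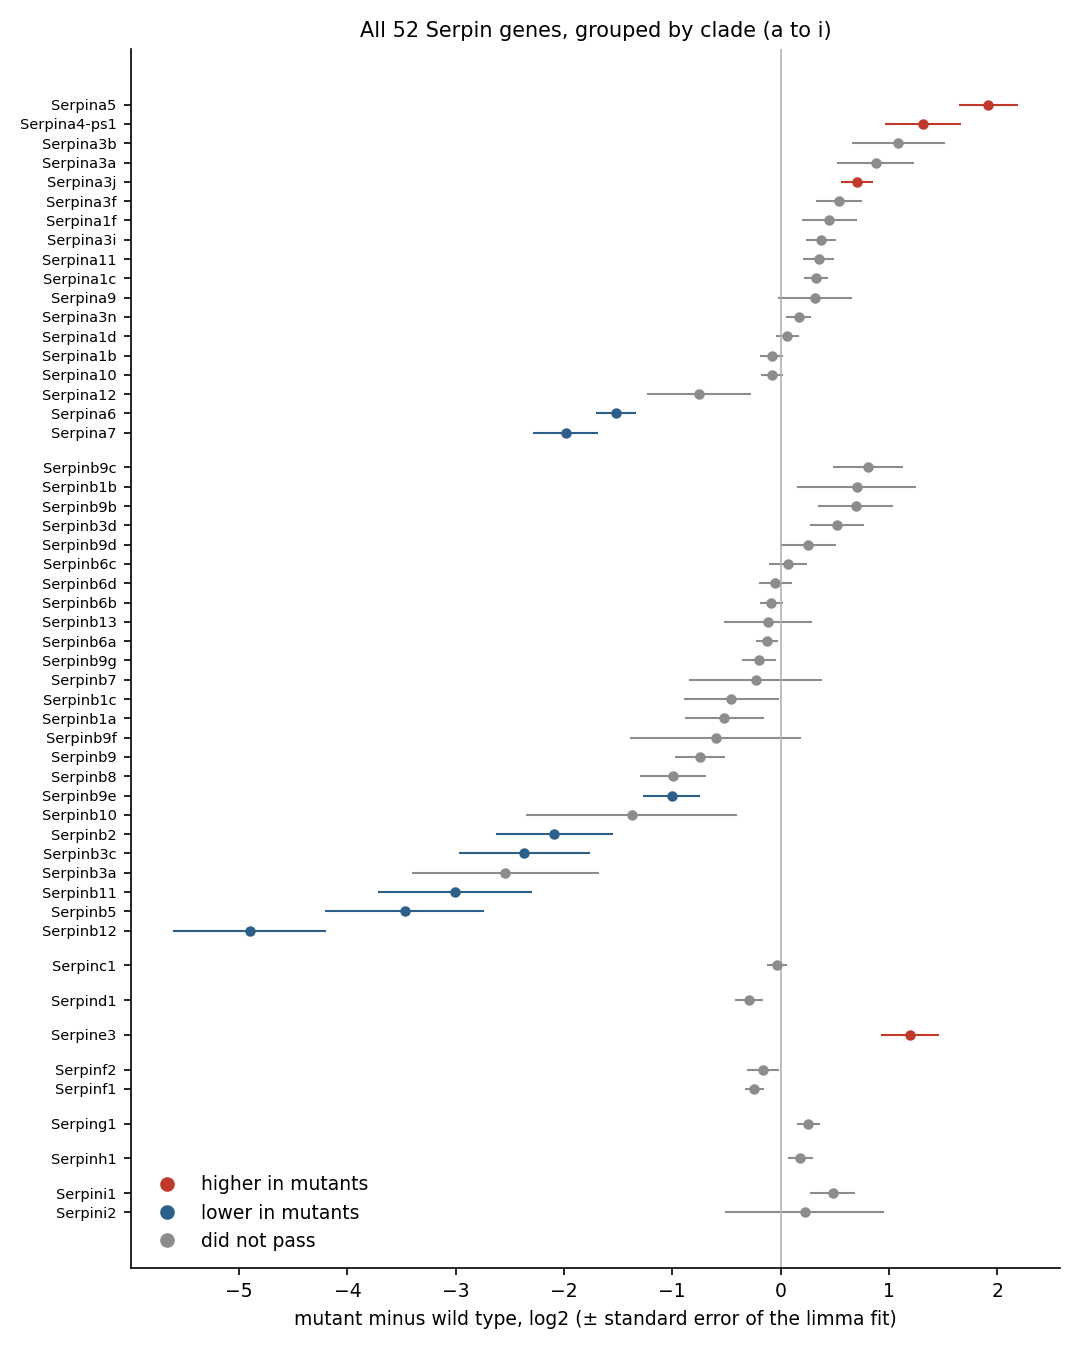
Mutant minus wild type difference (log2, horizontal axis) of each of the 52 Serpin genes, listed on the vertical axis by clade; each point is a gene and the bars are standard errors of the fit, red for higher, blue for lower and grey for genes that did not pass. The genes that passed in clade b all lie below 0, down to -4.90, while clade a holds genes on both sides of it.

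**Figure D2:**
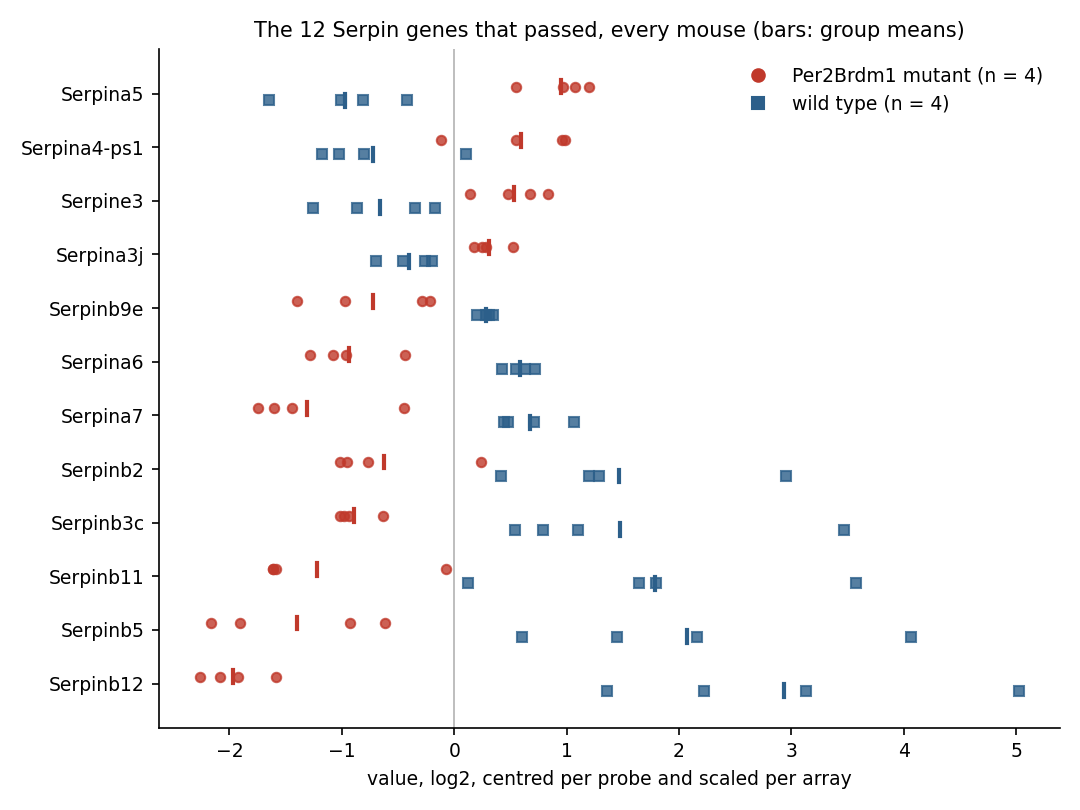
Centred log2 value (horizontal axis) of the 12 Serpin genes that passed (vertical axis) in the 4 mutant mice, as red circles, and the 4 wild-type mice, as blue squares; the short lines are group means. The groups stand apart in every gene but Serpina4-ps1, in which mutant replicate 4 lies below wild type replicate 1.

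The hormone carriers of clade a fell. Serpina6 encodes corticosteroid-binding globulin, the plasma carrier of glucocorticoids, and Serpina7 thyroxine-binding globulin, a plasma carrier of thyroid hormone. Both have a serpin fold without inhibitory activity. Serpina6 read -1.08, -1.29, -0.96 and -0.44 in the mutants and 0.43, 0.72, 0.63 and 0.55 in wild type. All mutants lay below all wild-type mice, with mutant replicate 4 nearest to them. The group means were -0.94 ± 0.36 (SD, n = 4) and 0.58 ± 0.12 (SD, n = 4), a difference of -1.52 ± 0.19 or 2.87-fold lower (adjusted p = 0.00233).

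Serpina7 read -1.74, -1.61, -1.45 and -0.45 in the mutants and 0.71, 0.45, 1.07 and 0.48 in wild type. The groups again did not overlap, and mutant replicate 4 was again the highest mutant. The difference was -1.99 ± 0.30, or 3.96-fold lower (adjusted p = 0.00498). Serpina6 and Serpina7 passed in all 8 fits that left out a mouse and in all 9 other alternatives.

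The genes around these carriers moved in both directions. Of 7 measured partners in hormone transport and action, 1 rose and 1 fell, against 15.5% of all rows that passed. The list median was -0.13. Ttr, transthyretin, the other dedicated plasma carrier of thyroxine, fell by 0.71 ± 0.11 (adjusted p = 0.00587). Dio1, the deiodinase that converts thyroxine in the liver, rose by 1.20 ± 0.25 (adjusted p = 0.0171). Nr3c1, the glucocorticoid receptor, differed by -0.27 ± 0.24 (adjusted p = 0.437) and Hsd11b1, which regenerates active glucocorticoid, by -0.32 ± 0.11 (adjusted p = 0.0986). Agt, angiotensinogen, itself a serpin by fold though not by symbol, differed by -0.13 ± 0.09 (adjusted p = 0.327).

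Of the inhibitors in clade a, Serpina5 had the largest rise among the Serpin genes. It encodes protein C inhibitor, which acts on activated protein C and other serine proteases. The gene mean read 1.20, 1.08, 0.96 and 0.55 in the mutants and -0.81, -1.64, -1.01 and -0.42 in wild type. All mutants lay above all wild-type mice, and the difference was 1.92 ± 0.27, or 3.78-fold higher (adjusted p = 0.00371). It passed in the same 8 fits without a mouse and the same 9 alternatives, and without wild type replicates 2 and 3 it was 1.56 (adjusted p = 0.0204). Adjusted for the control features it was 1.68 (adjusted p = 0.00469).

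The rise of Serpina5 came from 1 of its 2 probes. Probe A_51_P444954 read 2.34, 2.31, 1.72 and 0.79 in the mutants and -1.77, -2.32, -1.25 and -0.81 in wild type, a difference of 3.33 ± 0.44 (adjusted p = 0.00298 over all probes). Probe A_52_P617930 read 0.05, -0.16, 0.21 and 0.32 against 0.15, -0.97, -0.77 and -0.04. Its groups overlapped, with low values only in wild type replicates 2 and 3, the arrays with low control features, and its difference of 0.51 ± 0.27 did not pass (adjusted p = 0.209).

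The promoters of Serpina7 and Serpina5 are shown because they carry the largest fall and the largest rise of clade a. Each line gives the 250 bases before a transcription start on the gene's own strand, from RefSeq (GRCm38.p6), with motif matches in capitals. Serpina7 has 2 listed starts whose windows both hold the capitalised match, and the one shown is chrX:139085220-139085469, minus strand. The Serpina5 window is chr12:104100863-104101112, plus strand.
Serpina7: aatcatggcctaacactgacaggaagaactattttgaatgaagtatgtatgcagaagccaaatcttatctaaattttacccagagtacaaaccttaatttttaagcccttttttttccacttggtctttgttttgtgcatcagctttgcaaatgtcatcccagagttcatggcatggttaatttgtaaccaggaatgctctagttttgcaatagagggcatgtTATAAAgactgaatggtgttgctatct
Serpina5: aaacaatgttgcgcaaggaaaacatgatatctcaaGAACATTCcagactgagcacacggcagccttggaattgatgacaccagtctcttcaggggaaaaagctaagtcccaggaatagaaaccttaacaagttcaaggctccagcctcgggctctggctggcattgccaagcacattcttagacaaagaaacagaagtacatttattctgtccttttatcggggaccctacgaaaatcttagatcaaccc
The capitals mark TATAAA, the TATA box, 27 bases before the start of Serpina7, and a match to GAANNTTC, the core of the heat shock element, 215 bases before the start of Serpina5. On either strand, TATAAA was found in 12.4% and GAANNTTC in 6.69% of 32851 promoter windows of the same length. The aligned windows of these 2 genes were identical at 46% of positions.

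Serpina4-ps1 lies beside Serpina5 on chromosome 12 and is annotated as a pseudogene related to human kallistatin. It read 0.96, 0.55, 0.99 and -0.12 in the mutants and 0.11, -1.17, -1.02 and -0.80 in wild type. The groups overlapped, since mutant replicate 4 lay below wild type replicate 1. The difference of 1.32 ± 0.35 passed (adjusted p = 0.0411), but it no longer did without wild type replicates 2 and 3 (0.94, adjusted p = 0.267), in the fit adjusted for the control features (1.04, adjusted p = 0.0697) or in 6 of the 8 fits that left out a mouse (adjusted p up to 0.106).

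The Serpina3 genes are a mouse expansion of the single human gene for alpha-1-antichymotrypsin, which inhibits chymotrypsin-like proteases. The 6 measured ones were all above 0, with a median of 0.62, and 1 passed. Over all rows 15609 of 28042 were above 0. The groups did not overlap in 2 of the 6, against 24.6% of all rows. All 6 stayed above 0 under every scaling and every fit tried. Whether the probes of these paralogs also bind each other's transcripts was not tested. Serpina3j read 0.25, 0.52, 0.28 and 0.17 in the mutants and -0.45, -0.69, -0.19 and -0.26 in wild type. The groups did not overlap, and the difference was 0.71 ± 0.14, or 1.63-fold higher (adjusted p = 0.0160). Without wild type replicates 2 and 3 it was 0.66 and did not pass (adjusted p = 0.0599).

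The other Serpina3 genes did not pass. Their differences were 1.09 ± 0.43 for Serpina3b, 0.88 ± 0.35 for Serpina3a, 0.54 ± 0.21 for Serpina3f, 0.37 ± 0.14 for Serpina3i and 0.17 ± 0.11 for Serpina3n, with adjusted p from 0.109 to 0.301. Serpina3n, known as an acute-phase serpin of mouse liver, read 0.24, 0.24, 0.02 and -0.05 in the mutants and -0.0041, -0.18, 0.03 and -0.05 in wild type. Its groups overlapped. On the same arrays the acute-phase genes Saa1 and Lcn2 were higher by 4.03 ± 0.19 (adjusted p = 9.4e-05) and 2.21 ± 0.19 (adjusted p = 0.000628). They belong to a list of 14 acute-phase genes, of which 6 rose and 8 did not pass. The median difference of that list was 0.41 and its lowest -0.15.

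The alpha-1-antitrypsin genes of the Serpina1 group encode the main plasma inhibitor of neutrophil elastase. Of the 4 measured members 0 passed limma's adjusted test, and 1 had an unadjusted p under 0.05. Serpina1b differed by -0.08 ± 0.11, Serpina1d by 0.06 ± 0.11, Serpina1f by 0.45 ± 0.25 and Serpina1c by 0.33 ± 0.11 (adjusted p = 0.0902). Serpina1c read 0.27, 0.23, 0.09 and 0.05 against -0.12, -0.36, -0.07 and -0.13, so its groups did not overlap. The promoters of Serpina1b and Serpina1c were identical at 90.9% of aligned positions. Whether their probes also bind each other's transcripts was not tested.

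The remaining clade a genes did not pass. Serpina10, the protein Z-dependent inhibitor of factor Xa, differed by -0.08 ± 0.10. Serpina12, vaspin, read -0.06, -0.31, 0.42 and -0.08 in the mutants and 0.02, 1.28, 1.92 and -0.24 in wild type, where only replicates 2 and 3 stood above the mutants (adjusted p = 0.272). Serpina11 had groups that did not overlap and a difference of 0.35 ± 0.14 (adjusted p = 0.150).

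Along chromosome 12, the 9 measured genes from Serpina10 to Serpina12 had differences of both signs, from -1.52 to 0.45. From Serpina4-ps1 to Serpina3n, the end of the cluster that holds Serpina5 and the Serpina3 genes, all 8 measured genes were above 0. Of them 3 passed, against 6.52% of all rows that passed as higher. At the other end Serpina6 fell while its measured neighbours Serpina10 and Serpina1f differed by -0.08 and 0.45 and did not pass. The stretch from Serpina4-ps1 to Serpina3n was bounded after the values were seen, and 15609 of all 28042 rows were above 0.

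**Figure D3:**
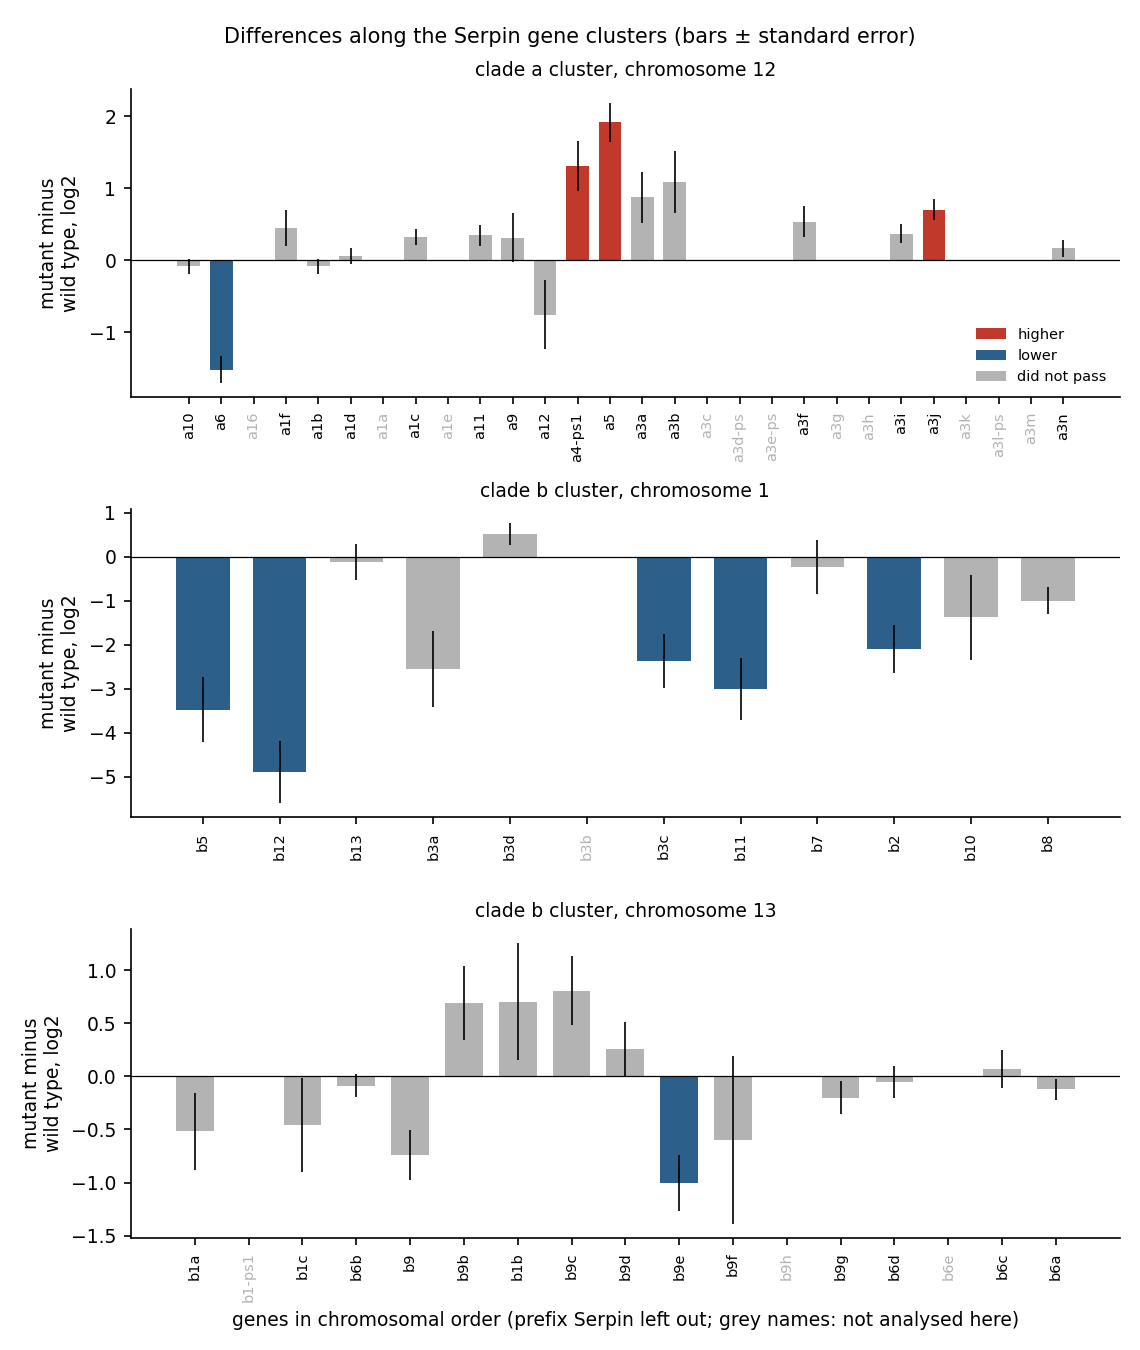
Mutant minus wild type difference (log2, y axis) of the measured Serpin genes in their order along the clusters of chromosomes 12, 1 and 13 (x axis, gene order, not distance); bars are differences with their standard errors, and genes named in grey have no value. All 8 measured genes from Serpina4-ps1 to Serpina3n on chromosome 12, a stretch bounded after the values were seen, lie above 0. On chromosome 1, 10 of the 11 lie below it.

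The clade b genes of chromosome 1 showed the largest falls. Several of their human counterparts, though not all, are known from stratified squamous epithelium, such as that of skin and oesophagus, more than from liver. Of 11 measured genes, 5 fell and 0 rose, against 8.93% of all rows that fell. The mutants lay below wild type without overlap in 7, against 14.6% of all rows, and the median difference was -2.09. The clade b genes of chromosome 13 had 1 lower gene of 14 and a median of -0.10.

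Serpinb12, whose human counterpart inhibits trypsin-like proteases, fell furthest. It read -1.59, -2.26, -1.92 and -2.09 in the mutants and 1.36, 5.02, 3.13 and 2.22 in wild type. The mutants lay close together and the wild-type mice were spread widely, with replicate 2 highest. The difference was -4.90 ± 0.71, or 29.9-fold lower (adjusted p = 0.00416). It passed in all 8 fits without a mouse and all 9 other alternatives, and without wild type replicates 2 and 3 it was -3.76 (adjusted p = 0.00622). Its probes gave -6.63 ± 0.74 (A_51_P518909, adjusted p = 0.00174) and -3.17 ± 0.73 (A_52_P172910, adjusted p = 0.0244), the same direction at different sizes.

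Serpinb5, maspin, known as a non-inhibitory epithelial serpin, read -0.93, -2.17, -1.90 and -0.61 in the mutants and 0.60, 4.06, 2.16 and 1.45 in wild type. Wild type replicate 2 was again the highest, and replicate 1 the lowest of its group. The difference was -3.47 ± 0.73 (adjusted p = 0.0179). It was -3.22 without mutant replicate 2 (adjusted p = 0.0520) and -2.43 without wild type replicates 2 and 3 (adjusted p = 0.0576).

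Serpinb11 read -1.62, -0.07, -1.61 and -1.59 in the mutants and 0.12, 3.57, 1.64 and 1.80 in wild type. Mutant replicate 2 stood apart from the other mutants and close to wild type replicate 1. The difference of -3.01 ± 0.71 passed (adjusted p = 0.0271), but not in 5 of the 8 fits that left out a mouse (adjusted p up to 0.0709) or without wild type replicates 2 and 3 (-2.18, adjusted p = 0.122).

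Serpinb3c and Serpinb3a are mouse relatives of the human squamous cell carcinoma antigens, which inhibit cathepsins and other proteases. Serpinb3c read -0.63, -0.93, -0.98 and -1.01 in the mutants and 0.54, 3.47, 1.10 and 0.79 in wild type. The groups did not overlap, and the difference was -2.37 ± 0.60 (adjusted p = 0.0359). It passed without wild type replicates 2 and 3 (-1.56, adjusted p = 0.00992), but not in 6 of the 8 fits that left out a mouse (adjusted p up to 0.0836).

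Serpinb3a read -0.36, -0.61, -0.30 and -0.34 in the mutants and 0.24, 4.69, 2.56 and 1.06 in wild type. The groups did not overlap, yet the spread in wild type was large (SD 1.95, n = 4) and the difference of -2.54 ± 0.86 did not pass (adjusted p = 0.0905). Serpinb3d, between the Serpinb3a and Serpinb3c genes on the chromosome, differed by 0.52 ± 0.25 (adjusted p = 0.193).

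Serpinb2, plasminogen activator inhibitor 2, read -0.77, -0.96, -1.01 and 0.23 in the mutants and 1.20, 2.95, 1.29 and 0.42 in wild type. Mutant replicate 4 and wild type replicate 4 were close, without overlap of the groups. The difference of -2.09 ± 0.54 passed (adjusted p = 0.0375), but not without wild type replicates 2 and 3 (-1.43, adjusted p = 0.122), in the fit adjusted for the control features (-1.63, adjusted p = 0.0574), nor in 5 of the 8 fits that left out a mouse (adjusted p up to 0.0937).

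The other chromosome 1 genes did not pass. Serpinb8, whose human counterpart inhibits furin, had groups that did not overlap and a difference of -0.997 ± 0.30 (adjusted p = 0.0654). Serpinb10, bomapin, known from myeloid cells, read -0.48, -0.63, -0.44 and 0.41 in the mutants and 4.31, 0.39, -0.23 and -0.10 in wild type, with a difference of -1.38 ± 0.98 (adjusted p = 0.321) that was -0.30 without wild type replicate 1. Serpinb13 and Serpinb7, known from human keratinocytes and, for Serpinb7, kidney mesangium, differed by -0.12 ± 0.41 and -0.23 ± 0.62.

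Several markers of squamous epithelium fell beside these genes. Of 20 measured markers 7 fell (35%, against 8.93% of all rows), 0 rose and 13 did not pass. The mutants lay below wild type without overlap in 7, against 14.6% of all rows. The median was -0.41, and 6 of the 20 were above 0. The list was chosen with earlier results of these data known. The falls were led by Crct1 with -7.32 ± 0.68 (adjusted p = 0.000907) and Krt4, a keratin of the oesophagus, with -6.58 ± 0.71 (adjusted p = 0.00151). The list mean, to which the largest falls add most, was -0.59, -0.64, -0.69 and -0.76 in the mutants and 0.62, 1.83, 0.91 and 0.54 in wild type. Wild type replicate 2 was the highest mouse, as it was for Serpinb12, Serpinb5, Serpinb11, Serpinb3c, Serpinb3a and Serpinb2. Krt13, Krt5, Sprr3, Lor and Sbsn also fell, by 2.92 to 4.17, while Krt14 and Trp63 differed by 0.10 and -0.27 and did not pass. Since the values are centred, it cannot be said whether any of these markers was near background in either group. The part of squamous epithelium in the falls of the clade b genes was not tested.

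**Figure D4:**
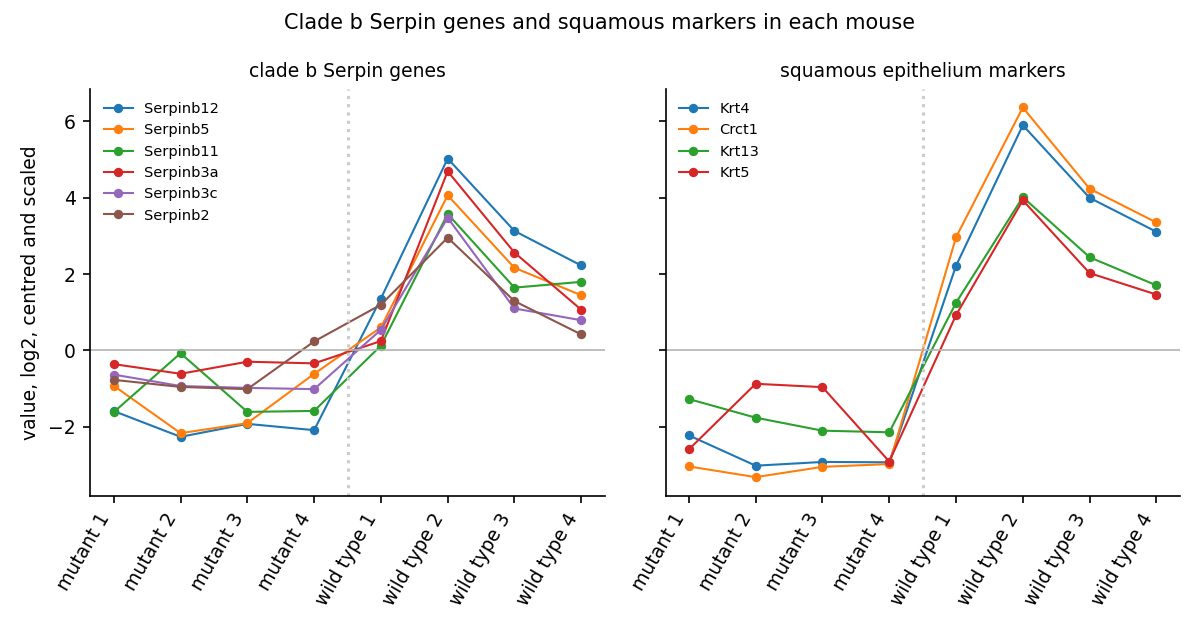
Centred log2 values (y axis) of 6 chromosome 1 clade b genes (left) and 4 of the 20 squamous epithelium markers, Krt4, Crct1, Krt13 and Krt5 (right) in each of the 8 mice (x axis); each line joins the values of a gene. In these 10 genes the 4 wild-type mice lie above the mutants, with wild type replicate 2 highest. The genes shown do not stand for the rest, since 13 of the 20 markers did not pass and 6 lay above 0. Of the chromosome 1 genes not shown, Serpinb7 and Serpinb13 were also highest in wild type replicate 2, with overlapping groups. Serpinb8 and Serpinb10 were highest in wild type replicate 1, and Serpinb3d was lowest in replicate 2 (-0.99).

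The count of 5 lower genes on chromosome 1 depended on the set of mice. The number of lower genes was 2 without mutant replicate 1, 2 or 3 or wild type replicate 3, and 2 without wild type replicates 2 and 3 together. It was 3 without mutant replicate 4 or wild type replicate 4, and 5 without wild type replicate 1 or 2. Without wild type replicate 1 the 5 were not the same genes, since Serpinb2 did not pass there (-2.18, adjusted p = 0.0603). The count of higher genes was 0 in each of these fits.

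The promoters of Serpinb12, Serpinb3c and Serpinb3a are shown as those of the largest fall and of a pair of close paralogs with like values. The windows are chr1:106934199-106934448, plus strand, chr1:107278372-107278621, minus strand and chr1:107052304-107052553, minus strand (RefSeq, GRCm38.p6).
Serpinb12: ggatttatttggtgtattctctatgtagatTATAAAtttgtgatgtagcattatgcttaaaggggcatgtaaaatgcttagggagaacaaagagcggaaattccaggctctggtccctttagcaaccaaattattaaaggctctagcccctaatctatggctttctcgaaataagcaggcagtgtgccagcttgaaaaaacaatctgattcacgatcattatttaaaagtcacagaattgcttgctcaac
Serpinb3c: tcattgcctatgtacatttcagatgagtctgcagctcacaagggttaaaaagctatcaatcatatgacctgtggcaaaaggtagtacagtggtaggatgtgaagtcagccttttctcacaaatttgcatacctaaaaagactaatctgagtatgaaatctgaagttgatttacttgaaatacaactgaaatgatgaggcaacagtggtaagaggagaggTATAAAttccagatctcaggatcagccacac
Serpinb3a: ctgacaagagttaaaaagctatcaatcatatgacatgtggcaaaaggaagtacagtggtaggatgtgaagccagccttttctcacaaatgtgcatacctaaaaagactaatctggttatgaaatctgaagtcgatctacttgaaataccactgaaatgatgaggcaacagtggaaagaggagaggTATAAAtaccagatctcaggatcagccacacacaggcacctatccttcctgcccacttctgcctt
Capitals mark TATAAA, at 220, 31 and 65 bases before the start. The Serpinb3a and Serpinb3c windows were identical at 71.5% of aligned positions, against 46.6% for Serpinb3c and Serpinb3d and 48.9% for Serpinb12 and Serpinb3c. Whether the probes of such paralogs also bind each other's transcripts was not tested.

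Promoter windows were available for 45 of the 52 Serpin genes and for 10 of the 12 that passed, some with several starts. The search covered both strands for 7 motifs. The E-box CACGTG, which the clock proteins CLOCK and BMAL1 bind, was in 0 of 54 member windows and in 6.02% of all windows. The D-box letters TTATGTAA and TTACGTAA were also in 0 of 54, against 0.819% and 0.113%. TTCNNNGAA, the STAT site, was in 9 of 54 member windows, against 7.02%, and among the passing genes in Serpinb2 alone. GAANNTTC was found in Serpina5 and Serpinb5, CAGACA, a SMAD-type motif, in Serpinb5 (17.1% of all windows), and TATAAA in Serpina7, Serpinb12, Serpinb2 and Serpinb3c. Overlaps between motifs were not removed, and these are matches of letters, not binding sites.

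The clade b genes of chromosome 13 include inhibitors of leukocyte proteases. Serpinb9e, of the group related to the granzyme B inhibitor Serpinb9, read -1.40, -0.98, -0.22 and -0.29 in the mutants and 0.31, 0.20, 0.35 and 0.28 in wild type. The wild-type mice lay close together and all above the mutants. The difference of -1.004 ± 0.26 passed (adjusted p = 0.0393). It did not pass in 6 of the 8 fits without a mouse (adjusted p up to 0.0997) or in 5 of the 9 other alternatives (adjusted p up to 0.187).

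Serpinb9 itself read -1.17, -0.37, -0.04 and -0.37 against 0.44, 0.12, 0.31 and 0.16. Its groups did not overlap, and the difference of -0.74 ± 0.24 did not pass (adjusted p = 0.0731). The other 5 Serpinb9 genes ranged from -0.60 for Serpinb9f to 0.81 for Serpinb9c, with overlapping groups. Serpinb9c read -1.08 and -0.83, and Serpinb9b -1.06 and -0.82, in wild type replicates 2 and 3, the arrays with low control features. Granzyme B, Gzmb, differed by 1.62 ± 0.47 (adjusted p = 0.0581).

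The Serpinb1 genes, whose human counterpart inhibits neutrophil elastase, cathepsin G and proteinase 3, varied widely among the mutants, with a median SD of 0.94 over 3 genes, against 0.18 in wild type. Serpinb1a read -1.04, -0.60, -0.70 and 0.79 in the mutants and 0.11, 0.30, 0.07 and 0.04 in wild type. Serpinb1c read -1.15, -0.21, -0.56 and 1.06 against 0.15, 0.60, 0.34 and -0.11. In both, mutant replicate 4 was the highest mouse and mutant replicate 1 the lowest, and neither difference passed (adjusted p = 0.319 and 0.466).

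Serpinb1b had probes of opposite sign. Probe A_52_P430348 read -1.19, -0.58, -0.48 and 1.04 in the mutants, an order of mice like that of Serpinb1a. Probe A_52_P86116 read 2.51, -0.17, 0.20 and 3.63 in the mutants, high in mutant replicates 1 and 4 only. In wild type this probe read 0.15, -0.99, -0.75 and -0.04, low in replicates 2 and 3, the arrays with low control features. The list mean of 8 glandular stomach markers was 2.27, 0.07, -0.64 and 2.19 in the same mutants and -0.59 to -0.19 in wild type, and that of 6 intestine markers was 0.75, -0.01, -0.15 and 1.67 and -0.45 to 0.07. The part of such tissue in the Serpinb1b values was not tested. Neither probe passed (adjusted p = 0.378 and 0.165).

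The 4 Serpinb6 genes, relatives of a human inhibitor of trypsin-like proteases and cathepsin G, ranged from -0.12 to 0.07, and 0 passed limma's adjusted test or an unadjusted p under 0.05. Serpinb6a, with 3 probes, hid a disagreement in its mean of -0.12 ± 0.10. Probe A_52_P617272 fell by 0.98 ± 0.21 (adjusted p = 0.0175), reading -0.94, -0.08, -0.81 and -0.71 against 0.23, 0.59, 0.43 and 0.13. Probe A_52_P217690 differed by 0.53 ± 0.25 and probe A_51_P191375 by 0.08 ± 0.16, and neither passed. Which transcripts each probe reads was not given.

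The plasma serpins of clades c, d, f and g that regulate clotting, fibrinolysis and complement did not pass, with differences of -0.29 to 0.26. Serpinc1, antithrombin, the main inhibitor of thrombin and factor Xa, read 0.04, -0.02, -0.04 and -0.07 in the mutants and -0.09, -0.07, 0.13 and 0.07 in wild type. The groups overlapped, and the difference was -0.03 ± 0.10 (adjusted p = 0.820). Serpind1, heparin cofactor II, which inhibits thrombin, differed by -0.29 ± 0.13 (adjusted p = 0.166). Serpinf2, alpha-2-antiplasmin, the main inhibitor of plasmin, differed by -0.16 ± 0.15 (adjusted p = 0.452).

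Serping1, the C1 inhibitor, read 0.13, 0.03, 0.15 and 0.27 in the mutants and -0.14, -0.25, -0.07 and 0.01 in wild type. The groups did not overlap, and the difference of 0.26 ± 0.11 did not pass (adjusted p = 0.148). Serpinf1, pigment epithelium-derived factor, a non-inhibitory serpin, read -0.11, -0.09, -0.20 and -0.14 against 0.09, 0.07, 0.11 and 0.17. Its groups also did not overlap, and its 2 probes gave -0.26 and -0.23, yet the gene difference of -0.24 ± 0.09 did not pass (adjusted p = 0.103).

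Serpine3 was the single gene of clades c to i that passed. It read 0.84, 0.48, 0.14 and 0.68 in the mutants and -1.26, -0.35, -0.86 and -0.17 in wild type. All mutants lay above all wild-type mice, and the difference was 1.19 ± 0.27, or 2.29-fold higher (adjusted p = 0.0225). It did not pass in 4 of the 8 fits that left out a mouse (adjusted p up to 0.0637) or without wild type replicates 2 and 3 (1.25, adjusted p = 0.107).

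Serpinh1, also called Hsp47, is the collagen chaperone of the endoplasmic reticulum. It read -0.06, 0.24, 0.01 and 0.12 in the mutants and -0.02, 0.06, -0.21 and -0.23 in wild type, with overlapping groups and a difference of 0.18 ± 0.12 (adjusted p = 0.280). Of 12 measured collagens and collagen-modifying enzymes, 6 rose and 0 fell, against 6.52% of all rows that rose. The list median was 0.46. Col1a1 and Col3a1, the fibrillar collagens that Serpinh1 is known to bind, rose by 1.12 ± 0.25 (adjusted p = 0.0216) and 0.86 ± 0.19 (adjusted p = 0.0201). The list mean of 9 stellate cell and fibroblast markers, 3 of which are collagens of the same list, was -0.03 to 0.43 in the mutants, against -0.30 to 0.21 in wild type, and its part was not tested.

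Of clade i, Serpini1, neuroserpin, an inhibitor of tissue plasminogen activator, differed by 0.48 ± 0.20 (adjusted p = 0.161). Serpini2, known from pancreas, read -1.92, 0.07, -0.16 and 1.25 in the mutants and -1.24, -1.33, 0.65 and 0.26 in wild type. The mice of both groups were scattered, and the difference was 0.22 ± 0.73 (adjusted p = 0.844). The list mean of 10 exocrine pancreas markers was -1.86, 0.75, -4.16 and 1.39 in the mutants and -0.72, -2.03, 3.13 and 2.34 in wild type, and 0 of them passed, adjusted or not. The part of pancreatic tissue in Serpini2 was not tested.

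Proteases that serpins act on, and genes that work with them, were read from lists on the same fit, in which 15.5% of all rows passed and 8.93% fell. Of 11 proteases listed with coagulation, not all of them clotting factors, 0 rose and 3 fell. Hgfac, the hepatocyte growth factor activator, fell by 0.60 ± 0.14, F7, the factor VII gene, by 0.43 ± 0.10, and Klkb1, plasma prekallikrein, by 0.42 ± 0.10 (adjusted p 0.0236 to 0.0295). Of the 7 measured genes listed with the plasminogen system 1 fell, a share near that of all rows. It was F3, tissue factor, which starts coagulation and is not a protease, by 1.04 ± 0.15 (adjusted p = 0.00375), and Plg, plasminogen, differed by -0.16 ± 0.10 (adjusted p = 0.275). Of 8 complement proteases C2 and Cfb rose, by 0.46 ± 0.09 and 0.44 ± 0.10, and C1rl fell by 0.55 ± 0.11 (adjusted p 0.0135 to 0.0208).

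Of 11 leukocyte serine proteases, 3 rose and 1 fell. Tpsb2, a mast cell tryptase, rose by 2.46 ± 0.29 (adjusted p = 0.00206), Prtn3, proteinase 3, by 1.92 ± 0.24 (adjusted p = 0.00240) and Gzmm, granzyme M, by 0.61 ± 0.16 (adjusted p = 0.0422). Mcpt4, a mast cell chymase, fell by 2.62 ± 0.55 (adjusted p = 0.0178). Of 6 mast cell markers, Tpsb2 rose and Mcpt4 fell, while Cpa3 and Kit differed by -0.72 and 0.01 and did not pass. Elane, neutrophil elastase, the main target of alpha-1-antitrypsin, differed by 0.28 ± 0.25 (adjusted p = 0.423). The list mean of 8 neutrophil markers was -0.15 to 0.85 in the mutants, against -0.54 to 0.02 in wild type, and 1 of them, S100a8, rose. The part of leukocyte number in the protease values was not tested.

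Read probe by probe, 15 of the 69 Serpin probes passed, 4 higher and 11 lower, against 16.3% of all 41174 probes (6.36% higher and 9.92% lower). Of 16 genes with several probes, 7 had probes of opposite sign with a passing probe, or probes at least 1 apart on the log2 scale. They were Serpina5, Serpinb10, Serpinb12, Serpinb1b, Serpinb2, Serpinb3c and Serpinb6a. In Serpinb2, A_51_P101146 differed by -2.69 ± 0.58 and passed (adjusted p = 0.0184), while A_52_P639522 differed by -1.50 ± 0.81 (adjusted p = 0.213). In Serpinb3c, A_51_P101004 differed by -3.05 ± 0.73 and passed (adjusted p = 0.0275), while A_51_P100997 differed by -1.68 ± 0.50 (adjusted p = 0.0591). In Serpinb10, A_52_P73620 read 8.41 in wild type replicate 1 and 1.74 or less in all other mice, while A_51_P400228 read 0.21 there.

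**Figure D5:**
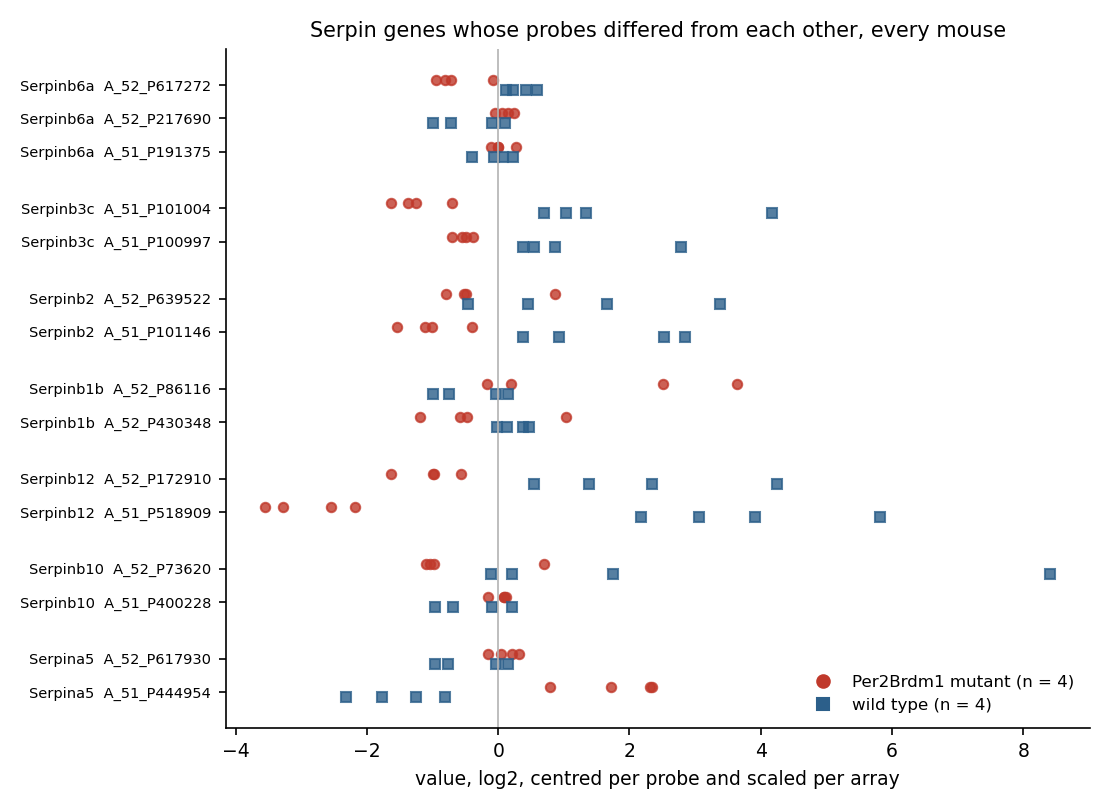
Centred log2 value (horizontal axis) in each mouse for every probe (vertical axis) of the 7 Serpin genes whose probes disagreed; red circles are mutants and blue squares wild type. In Serpina5 the probe A_51_P444954 separates the groups by 3.33 while the other probe has overlapping groups.

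Some Serpin probes were low in the arrays with low control features. Of the 69 probes, 11 (15.9%) lay below -0.5 in wild type replicates 2 and 3 both, compared with 21.8% of all probes. Of these 11, 2 passed, the probe A_51_P444954 of Serpina5 and the probe A_51_P339098 of Serpina4-ps1. The Serpina5 probe was below -0.5 in all 4 wild-type mice. Serpinb3d read 0.11, -0.99, -0.73 and -0.11 in wild type, and Serpinb6a probe A_52_P217690 read 0.10, -0.99, -0.72 and -0.10, nearly the same values for different genes. Serpina1f read 0.20, -0.94, -0.71 and -0.10. Adjusted for the control features, 3 higher and 7 lower Serpin genes passed, in place of 4 and 8.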

How the data were processed

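Liver RNA of 8 mice was labelled with cyanine 3 and hybridised to 1-colour Agilent arrays, 1 mouse per array, per the labels' protocols. The deposited table holds log2 values that the authors normalised by a method not given in the sources used here and centred on each probe's median. The base of 2 was inferred from how far the values spread, and a higher value was read as brighter signal. Every fold change depends on both readings. Signal over background could not be given, and precision is limited by having 4 arrays per group. The p-values set each difference against the spread between these animals and treat the mice as independent. The labels do not say that the mice came from separate litters.

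Of 41252 deposited probes, 78 control features were set aside. Each array was shifted to a common 75th percentile, by -0.09 to -0.01 in mutants and 0.05 to 0.07 in wild type. Probes of the same single symbol were averaged, which left 28042 rows, 19532 of them named genes. The symbols came from the platform annotation: 32664 probes had 1 symbol, 45 several and 8465 none, and all 52 Serpin genes were matched to RefSeq (GRCm38.p6) by gene ID. The two-sided test was limma 3.58.1 (lmFit and eBayes) in R 4.3.3 with Benjamini-Hochberg adjustment over all rows, and over all 41174 probes in the fit of single probes. The procedure was tested on simulated data. Promoter windows were searched and aligned with Biopython 1.88 under Python 3.11.15, and figures were drawn with matplotlib 3.10.9.

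Named are every Serpin gene that passed, the 3 smallest p-values of each clade, genes whose probes disagreed, and in each pathway list the members that passed or else the 2 smallest p-values. A few others were named after their values were seen. The members, gene lists, markers and alternatives were chosen with earlier results of these data known, and the motif TATAAA was added after the promoters had been read. Alternatives were no shift, a common median, quantile scaling, robust variance, array weights, the control features as a covariate, a replicate block, the median of probes, other thresholds, leaving out each mouse, and leaving out wild type replicates 2 and 3. Protein sequences were not used here.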

Additional observations from a re-analysis of the deposited data

Results flagged for a closer look

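In 6 of 104 groups of 4 mice, a single mouse stood apart from the other 3 by Dixon's criterion, and chance alone flags about 1 group in 20. Values are centred log2 values of the gene mean. Serpinb10 read 4.309 in wild type replicate 1, with the next wild-type mouse at 0.391, and the value came from 1 of its 2 probes. Serpinb11 read -0.07436 in mutant replicate 2, with the next mutant at -1.585. Serpinb9f and Serpinb9c read 1.867 and 1.034 in mutant replicate 2, with the next mutants at -0.174 and 0.0627. Serpinb7 read -1.125 in mutant replicate 1, with the next mutant at -0.0656. Serpina3b read -0.08366 in mutant replicate 3, with the next mutant at 0.247. Of these 6 genes only Serpinb11 passed the test between the genotypes, and mutant replicate 2 lay nearest to wild type there.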

How the results depend on the processing

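The counts of 4 higher and 8 lower Serpin genes, and of 4 higher and 11 lower probes, moved with the samples, the threshold and the block. Leaving out each mouse in turn gave 2 to 4 higher and 4 to 7 lower genes, and 3 to 5 higher and 6 to 12 lower probes. There were 2 higher and 4 lower genes without mutant replicate 1, mutant replicate 2 or wild type replicate 3, and 5 lower without wild type replicate 4. Without wild type replicates 2 and 3 there were 1 higher and 4 lower genes and 1 higher and 7 lower probes, and 1766 rows of all passed in place of 4333. An unadjusted p under 0.05 gave 13 higher genes, 15 higher probes and 19 lower probes. With the replicate block there were 1 higher and 4 lower genes and 2 higher and 6 lower probes, and 2030 rows of all passed. Deviations of same-numbered mice from their group means had correlations of 0.02, 0.08, -0.10 and 0.10 over 28042 rows. These were not set against mice of different numbers, so they cannot decide whether the numbers pair the mice. Under the block and without wild type replicates 2 and 3, clade a had 1 higher gene and clade b 2 lower genes. Clade b also had 2 lower genes without mutant replicate 1, mutant replicate 2 or wild type replicate 3, and 3 without wild type replicate 4. Scaling, variance model, covariate and probe summary left each Serpin gene count within 1.5 times. Serpina5, Serpina6, Serpina7 and Serpinb12 passed in every fit run. Over the 12 genes that passed, 152 alternative fits kept the call, 52 lost it and 0 reversed the direction. The cause was not tested.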

Other observations

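Protease inhibitors outside the serpin family were read from 4 lists, beside 15.5% of all rows and 17.6% of named genes that passed. The share was 40% in the first list below, of 5 genes, and 18.2%, 10% and 0% in the others, near or under that of all genes. Of 5 matrix metalloprotease inhibitors, 2 fell and 0 rose: Reck, a membrane-anchored inhibitor, by 0.77 ± 0.11 (limma, adjusted p = 0.00338), and Timp4 by 1.40 ± 0.31 (adjusted p = 0.0223), while Timp1 differed by 0.0035 ± 0.23 (adjusted p = 0.993). Of 11 Kunitz and Kazal inhibitors, 2 fell and 0 rose. Tfpi2 fell by 0.67 ± 0.15 (adjusted p = 0.0212), and Spink5, an inhibitor of kallikreins in skin, by 2.54 ± 0.57 (adjusted p = 0.0223). Spink5 read 0.48, 3.36, 1.497 and 1.40 in wild type, highest in replicate 2 as was the mean of the squamous epithelium markers (0.62, 1.83, 0.91 and 0.54), whose part was not tested. Of 10 genes of the alpha-2-macroglobulin and inter-alpha inhibitor families, Itih3 rose by 0.48 ± 0.11 (adjusted p = 0.0228).

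Of 12 cystatins, kininogens and fetuins, 0 passed limma's adjusted test and 2 had an unadjusted p under 0.05. These were Stfa1 and Stfa3, intracellular inhibitors of cathepsins, which differed by -2.15 ± 0.67 (adjusted p = 0.0712) and 1.29 ± 0.43 (adjusted p = 0.0863). Stfa1 read 0.26, 3.85, 1.54 and 1.29 in wild type, also highest in replicate 2. Of 12 lysosomal proteases, 3 rose and 0 fell, against 6.52% of all rows that rose. Ctsc, which activates the serine proteases of leukocytes, rose by 1.26 ± 0.12 (adjusted p = 0.00101). Ctss, a cathepsin of antigen-presenting cells, rose by 1.08 ± 0.18 (adjusted p = 0.00775), and Ctsf by 0.39 ± 0.09 (adjusted p = 0.0308). Kupffer cell markers were higher in the same mice, and their part in the cathepsin values was not tested.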
